A study of Mus musculus with 12 samples.

Results

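The miR-30 guide strands measured here were mmu-miR-30a, mmu-miR-30b, mmu-miR-30c, mmu-miR-30d and mmu-miR-30e, called miR-30a to miR-30e below. They were taken by their exact names in the annotation of the arrays and make up 5 of the 611 mouse miRNA names on them. A microRNA is a short RNA that guides an Argonaute protein to messenger RNAs, mostly by pairing of its seed, the bases next to its 5′ end, and lowers the output of those messages. The members of the miR-30 family are made from separate hairpins, share 1 seed and so have largely shared predicted targets. In mesenchymal and epithelial cells the family is known for holding back genes of the fibroblast-like state, and the opposite strand of a miR-30c hairpin for targeting the message of XBP1, a transcription factor of the unfolded protein response.

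The mature sequences below are from RefSeq (build GRCm38.p6), which gave an entry for 3 of the 5 members. They are shown because miR-30e, which passed the test in WT, and miR-30a and miR-30c, which did not, carry the same seed, bases 2 to 8, printed in capitals.

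miR-30a: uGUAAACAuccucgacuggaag

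miR-30c: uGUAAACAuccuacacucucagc

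miR-30e: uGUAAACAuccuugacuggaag

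miR-384-5p: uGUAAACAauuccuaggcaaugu

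miR-30a lies at chr1:23272274-23272295 on the plus strand, in the gene Mir30a. miR-30c has a copy in Mir30c-2, at chr1:23291714-23291736 on the plus strand, and a copy in Mir30c-1, at chr4:120769584-120769606 on the minus strand. miR-30e lies at chr4:120772660-120772681 on the minus strand, in Mir30e. The seed GUAAACA was held by 4 of the 1679 mature mouse names in the RefSeq table (0.238%), the fourth being miR-384-5p at chrX:105344332-105344354 on the minus strand. That count leaves out miR-30b and miR-30d, which had no entry there. Counting from the 5′ end, miR-30a and miR-30e were identical at 21 of 22 positions and differed by the substitution C13U. miR-30a and miR-30c were identical at 17 of 22 positions, and C13A, G14C, G18C, G19U and A20C separated them. Whether a probe for miR-30a also captures miR-30e was not tested.

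The cells were C57BL/6 mouse embryonic fibroblasts with the genotype ATF4WT (WT) or ATF4KO (KO). ATF4 is a transcription factor of the PERK branch of the unfolded protein response, and tunicamycin, which blocks N-linked glycosylation, loads the endoplasmic reticulum with unfolded proteins. In each genotype a group was left untreated, a group received tunicamycin at 2 ug/mL for 12 h and a group received it for 24 h, with 2 arrays per group and 12 in all. The series describes the 2 arrays of a group as independent experiments; whether the KO cells were 1 line or several, and whether embryos were pooled, is not given in the sources used here. The series set out to find miRNAs that depend on ATF4 for their response at 12 h. ATF4 itself is not a target of these arrays, so the genotype labels were not checked by it.

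The 4 untreated arrays lay on 1 slide and the 8 tunicamycin arrays on another, so tunicamycin and slide cannot be told apart. On each slide the WT arrays filled 1 row and the KO arrays the other, so genotype and row cannot be told apart either. The 75th percentile of signal that scaled the arrays ran from 203.5 to 791.2, and 92 to 164 mouse miRNAs per array were well above background. Of 8 fibroblast marker miRNAs, 7 were well above background and miR-145 was not on any array; no epithelial, blood or neural marker was. Among other markers, miR-206 of muscle was so on 2 arrays, and miR-126-3p of endothelium and miR-294 of pluripotent cells on 1 each. The summed scaled signal of those fibroblast markers was 45.3 and 46.1 in untreated WT, 20.3 to 31.6 in the 4 WT tunicamycin arrays, 35.4 and 35.7 in untreated KO and 28.0 to 36.8 in the KO tunicamycin arrays. That sum was carried mostly by miR-21, whose log2 scaled signal ran from 3.91 to 5.21, beside at most 2.10 for any other marker. Single markers went both ways between genotypes. In untreated KO against WT, 3 passed the limma test described below as higher and 2 as lower, beside 32.4% of all tested miRNAs. The median log2 difference of the markers was 0.12 there. The sum thus moved with the WT response described next, and its part in that was not tested. Fewer cells of a type and less RNA per cell cannot be told apart in such samples.

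In WT cells tunicamycin went with lower miR-30e and miR-30b, whereas miR-30a and miR-30c did not pass the test at either time. miR-30e was 0.75 ± 0.18 (SE) lower on the log2 scale at 12 h, a 1.68-fold difference. In WT, 30.3% of all tested miRNAs passed the test as lower at 12 h and 15.2% at 24 h. In KO cells no member passed the test at 12 h or 24 h, beside 0.69% and 2.07% of all tested miRNAs. There miR-30b was too dim to show a fall as large as in WT. Before treatment miR-30e was already 0.60 ± 0.18 (SE) lower in KO than in WT on the log2 scale. The median difference over all tested miRNAs was -0.49 there, and miR-30e relative to it was -0.11. Levels below are the log2 of the signal summed over a miRNA's probes and divided by the array's scale, so 0 is that scale. They are compared within a miRNA and never between miRNAs, since probes differ in brightness. Where the arrays of 2 groups are said not to overlap, the share of all tested miRNAs doing the same was not counted. Such separations are thus not shown to be particular to the members. Calls are adjusted p-values below 0.05 in limma over the 145 miRNAs tested, with 2 arrays per group.

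**Figure D1:**
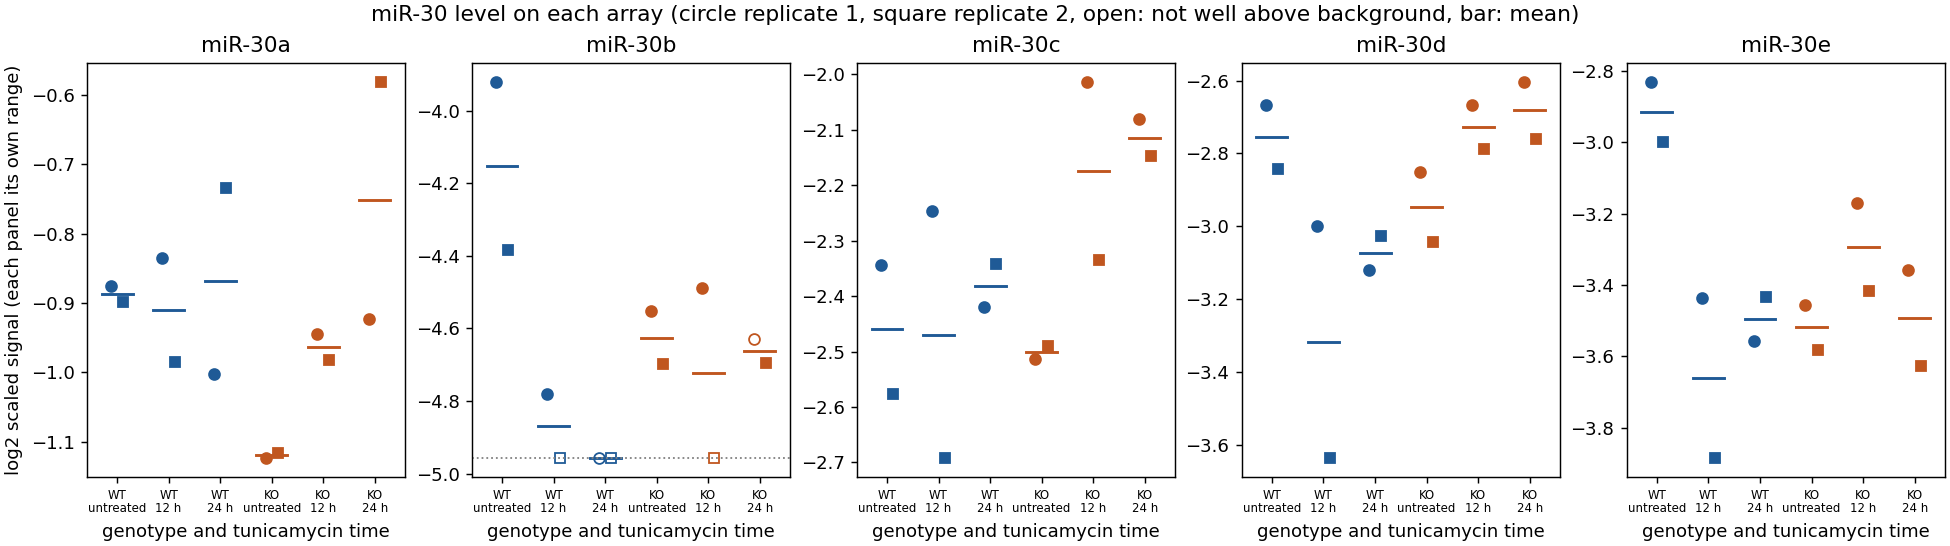
Log2 scaled signal (y axis, a range per panel) of each miR-30 member on the 12 arrays by genotype and tunicamycin time (x axis); circles are replicate 1, squares replicate 2, bars group means, open symbols arrays not well above background, and the dotted line the floor at -4.96. Both untreated WT arrays lie above all 10 other arrays for miR-30b and miR-30e, which is not so for miR-30a, miR-30c or miR-30d. How many other tested miRNAs show the same was not counted.

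miR-30e, made from a hairpin that neighbours that of miR-30c-1, was well above background on all 12 arrays. Its log2 levels in untreated WT were -2.83 and -3.00. After 12 h of tunicamycin they were -3.44 and -3.89, and after 24 h -3.56 and -3.43. The untreated WT arrays were higher than all 4 treated WT arrays. The difference at 12 h passed the test in limma (-0.75 ± 0.18, adjusted p = 0.0198), and that at 24 h did not (-0.58 ± 0.18, adjusted p = 0.0694). In untreated KO the levels were -3.46 and -3.58, at 12 h -3.17 and -3.42, and at 24 h -3.36 and -3.63. Both KO arrays at 12 h were above both untreated KO arrays, whereas the 24 h arrays spanned them. Neither KO difference passed the test (0.23 ± 0.18 at 12 h, adjusted p = 0.615; 0.03 ± 0.18 at 24 h, adjusted p = 0.953).

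miR-30b, whose hairpin neighbours that of miR-30d, was the dimmest member and was well above background on 7 of 12 arrays. Its untreated WT levels were -3.92 and -4.38. At 12 h they were -4.78 and the floor of -4.96, with 1 of the 2 arrays well above background, and at 24 h both arrays were at the floor. Background-subtracted signals behind these values were 38.1 and 26.6 untreated, 15.7 and 14.4 at 12 h, and 8.50 and 7.98 at 24 h, in arbitrary units before scaling. No treated WT array reached either untreated array. miR-30b fell at 12 h (-0.72 ± 0.20, adjusted p = 0.0332 in limma) and at 24 h (-0.81 ± 0.20, adjusted p = 0.0302). The floor set the spread of the 24 h WT group to 0, so these SE and adjusted p rest partly on floored values. With 1 array at the floor, the 12 h difference is no exact value. Because no 24 h WT array was well above background, the 24 h difference is a bound, at least 1.32-fold lower than untreated, taken against the dimmest level well above background on each array. KO levels were -4.55 and -4.70 untreated, -4.49 and the floor at 12 h, and -4.63 and -4.70 at 24 h. The KO groups overlapped at both times, and neither KO difference passed the test (-0.10 ± 0.20 and -0.04 ± 0.20, adjusted p = 0.873 and 0.930). In KO, 1 of the 2 arrays was well above background at 12 h and 1 of the 2 at 24 h. Untreated KO already lay so near the floor that a fall as large as in WT could not have shown.

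miR-30d had log2 levels of -2.67 and -2.84 in untreated WT, -3.00 and -3.64 at 12 h, and -3.12 and -3.03 at 24 h. The untreated WT arrays were again the highest of the 6 in that genotype. The differences did not pass the test in limma (-0.56 ± 0.20 at 12 h, adjusted p = 0.0768; -0.32 ± 0.20 at 24 h, adjusted p = 0.373). Over single omitted arrays the 12 h difference ran from -0.88 to -0.24. KO levels were -2.85 and -3.04 untreated, -2.67 and -2.79 at 12 h, and -2.60 and -2.76 at 24 h. Here the treated arrays were the higher ones, without passing the test (0.22 ± 0.20, adjusted p = 0.628; 0.26 ± 0.20, adjusted p = 0.494).

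miR-30a, the member with 3 probes, differed little across the WT groups. Its log2 levels were -0.87 and -0.90 untreated, -0.84 and -0.98 at 12 h, and -1.002 and -0.73 at 24 h, with the groups overlapping. The 95% interval of the WT difference was -0.35 to 0.30 at 12 h and -0.31 to 0.34 at 24 h, so differences of that size were not excluded. KO levels were -1.12 and -1.12 untreated, -0.94 and -0.98 at 12 h, and -0.92 and -0.58 at 24 h. All 4 treated KO arrays were above both untreated ones. The KO differences were 0.16 ± 0.14 (adjusted p = 0.615 in limma) and 0.37 ± 0.14 (adjusted p = 0.211). Over single omitted arrays the latter ran from 0.20 to 0.54.

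miR-30c, whose mature sequence comes from hairpins on chromosomes 1 and 4, likewise overlapped across the WT groups. Its WT levels were -2.34 and -2.58 untreated, -2.25 and -2.69 at 12 h, and -2.42 and -2.34 at 24 h. The 95% interval of the WT difference was -0.42 to 0.40 at 12 h and -0.33 to 0.49 at 24 h. In KO the levels were -2.51 and -2.49 untreated, -2.01 and -2.33 at 12 h, and -2.08 and -2.15 at 24 h. Every treated KO array was above both untreated ones, and the differences did not pass the test (0.33 ± 0.17, adjusted p = 0.471; 0.39 ± 0.17, adjusted p = 0.281).

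The share of members called in WT was near that of all miRNAs tested. At 12 h, 2 of 5 members were called, both lower, beside 30.3% of the 145 tested miRNAs called lower and 31% called in either direction. The median difference was -0.56 over the members and -0.32 over all tested miRNAs. At 24 h, 1 of 5 was called, lower, beside 15.2% of all, with medians of -0.32 and -0.17. In KO, 0 of 5 members were called by limma at 12 h, beside 0.69% of all, and 0 of 5 at 24 h, beside 2.07%. At an unadjusted p below 0.05 the KO counts were 0 at 12 h and 1 at 24 h, beside 21 and 26 of the 145. The KO medians were 0.22 over the members and 0.06 over all at 12 h, and 0.26 and 0.20 at 24 h. Relative to the median of all miRNAs, the WT differences at 12 h were -0.43 for miR-30e, -0.40 for miR-30b, -0.24 for miR-30d, 0.29 for miR-30a and 0.31 for miR-30c. Comparisons of the 2 times with untreated share the untreated arrays. Between 24 h and 12 h, 0 of 5 members and 0% of the 145 miRNAs were called by limma in either genotype. None of the 5 was below an unadjusted p of 0.05 there, against 5 of the 145 in WT and 10 in KO. Those differences were -0.09 for miR-30b, 0.04 for miR-30a, 0.09 for miR-30c, 0.17 for miR-30e and 0.24 for miR-30d in WT, with that of miR-30b set by the floor. In KO they were -0.20 for miR-30e, 0.04 for miR-30d, 0.06 for miR-30b, 0.06 for miR-30c and 0.21 for miR-30a.

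**Figure D2:**
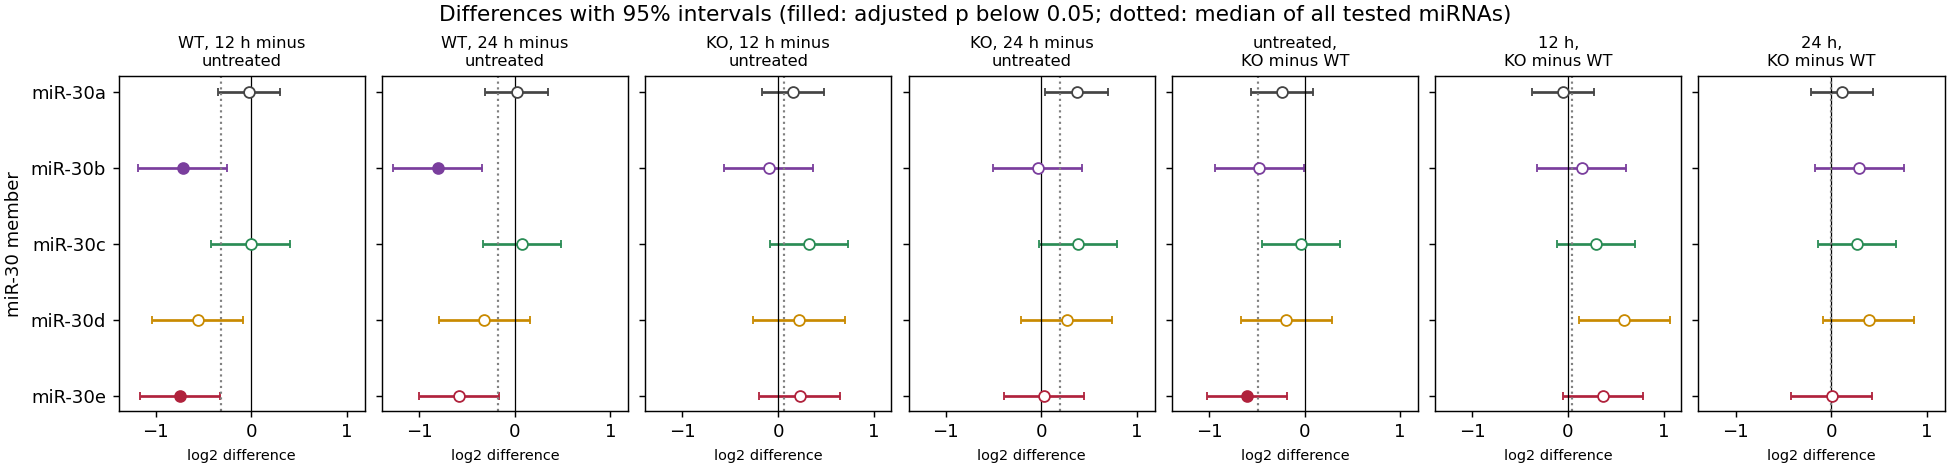
Log2 differences (x axis) of the 5 miR-30 members (y axis) for tunicamycin against untreated in each genotype and for KO against WT in each condition; bars are 95% intervals from limma, filled points have an adjusted p below 0.05, and the dotted line is the median of all 145 tested miRNAs. Filled points are miR-30b and miR-30e in WT at 12 h, miR-30b in WT at 24 h and miR-30e in untreated KO against WT.

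Untreated KO cells had a lower scaled signal of miR-30e than untreated WT cells, and the median over all tested miRNAs was lower too. 1 of 5 members was called, lower, beside 25.5% of all miRNAs called lower and 32.4% in either direction. miR-30e differed by -0.60 ± 0.18 (adjusted p = 0.0385 in limma), and the KO arrays at -3.46 and -3.58 did not reach the WT arrays at -2.83 and -3.00. Within the first scan the difference was -0.62 and within the second -0.58; with the scan as a fixed block the adjusted p rose to 0.0553, with the size unchanged at -0.60. All miRNAs had a median of -0.49 in this comparison, so the difference of miR-30e relative to it was -0.11. miR-30b differed by -0.47 ± 0.20 (adjusted p = 0.0998), and by -0.63 and -0.32 within the scans. The others differed by -0.23 ± 0.14 (miR-30a, adjusted p = 0.234), -0.19 ± 0.20 (miR-30d, adjusted p = 0.551) and -0.04 ± 0.17 (miR-30c, adjusted p = 0.896).

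After tunicamycin no member passed the test between the genotypes. At 12 h, 0 of 5 were called by limma beside 24.8% of all miRNAs, and 1, miR-30d, had an unadjusted p below 0.05, as did 49 of the 145. miR-30d was 0.59 ± 0.20 higher in KO (adjusted p = 0.0724), by 0.33 within the first of the tunicamycin scans and by 0.85 within the second. With the scan as a random block its adjusted p was 0.0452 in limma. Over single omitted arrays the difference of miR-30d ran from 0.27 to 0.91. The other differences at 12 h were 0.37 for miR-30e, 0.30 for miR-30c, 0.15 for miR-30b and -0.05 for miR-30a. At 24 h, 0 of 5 were called by limma beside 15.2% of all, and none had an unadjusted p below 0.05, against 36 of the 145. Those differences were 0.39 for miR-30d, 0.30 for miR-30b, 0.27 for miR-30c, 0.12 for miR-30a and 0.00 for miR-30e. That of miR-30b was set by the floor, where both 24 h WT arrays lay, and supports no fold.

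The genotypes differed in the response of miR-30e at 12 h. Its response in KO minus that in WT was 0.97 ± 0.25 on the log2 scale (adjusted p = 0.0349 in limma), from -0.75 in WT and 0.23 in KO. The median over all miRNAs was 0.49, and miR-30e lay 0.48 above it. 1 of 5 members was called, higher in KO, beside 20.7% of all miRNAs called higher and 22.8% in either direction. The level of miR-30e in untreated KO, -3.52 on average, was already near that of treated WT, -3.66 at 12 h and -3.50 at 24 h. With the scan as a fixed block the adjusted p was 0.0539 for the same 0.97. The differences in response of the other members were 0.78 ± 0.29 for miR-30d (adjusted p = 0.104), 0.62 ± 0.28 for miR-30b (0.171), 0.34 ± 0.24 for miR-30c (0.421) and 0.18 ± 0.19 for miR-30a (0.610). Without the first 12 h WT array, that of miR-30d was 1.1004 (adjusted p = 0.0171). At 24 h, 0 of 5 were called by limma beside 8.28% of all, and 2, miR-30b and miR-30e, had an unadjusted p below 0.05, as did 36 of the 145. The 24 h differences in response were 0.77 for miR-30b, 0.61 for miR-30e, 0.58 for miR-30d, 0.35 for miR-30a and 0.31 for miR-30c, around a median of 0.34 over all miRNAs. That of miR-30b includes the 24 h WT group at the floor and is no exact value. At 12 h, 1 array of each genotype was at the floor for miR-30b, so 0.62 is no exact value either.

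A ratio taken within an array does not depend on the scaling between arrays, and shows whether 2 members moved unequally. These ratios to miR-30a were chosen after the levels had been seen. The log2 ratio of miR-30e to miR-30a was -1.96 and -2.10 in untreated WT, -2.60 and -2.90 at 12 h, and -2.56 and -2.70 at 24 h. Untreated and treated WT arrays did not overlap, and the means differed by -0.66. In KO the same ratio was -2.33 and -2.47 untreated, -2.23 and -2.43 at 12 h, and -2.43 and -3.05 at 24 h, where the groups overlapped and the means differed by -0.14. The ratio of miR-30b to miR-30a was -3.05 and -3.48 in untreated WT and between -4.74 and -3.94 in the 4 treated arrays. miR-30b was well above background on only 1 of those 4, so its treated ratios give no exact difference. That of miR-30d was -1.79 and -1.95 untreated and between -2.65 and -2.12 treated, a difference of -0.44. That of miR-30c overlapped, with a difference of 0.04. For miR-30c and miR-30d the KO differences were 0.10 and -0.02, with overlapping groups. The KO difference of miR-30b was -0.34, also with overlapping groups. miR-30b was well above background on 1 of 2 KO arrays at each tunicamycin time, so this is no exact difference. A two-sided exact permutation test of 2 untreated against 4 treated arrays cannot go below 0.0667, so none of the 8 comparisons, 4 members in 2 genotypes, could pass. miR-30e and miR-30b in WT were both at that limit, each with 0.267 after adjustment over the 8. Unequal movement of the members was thus not shown by a test.

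**Figure D3:**
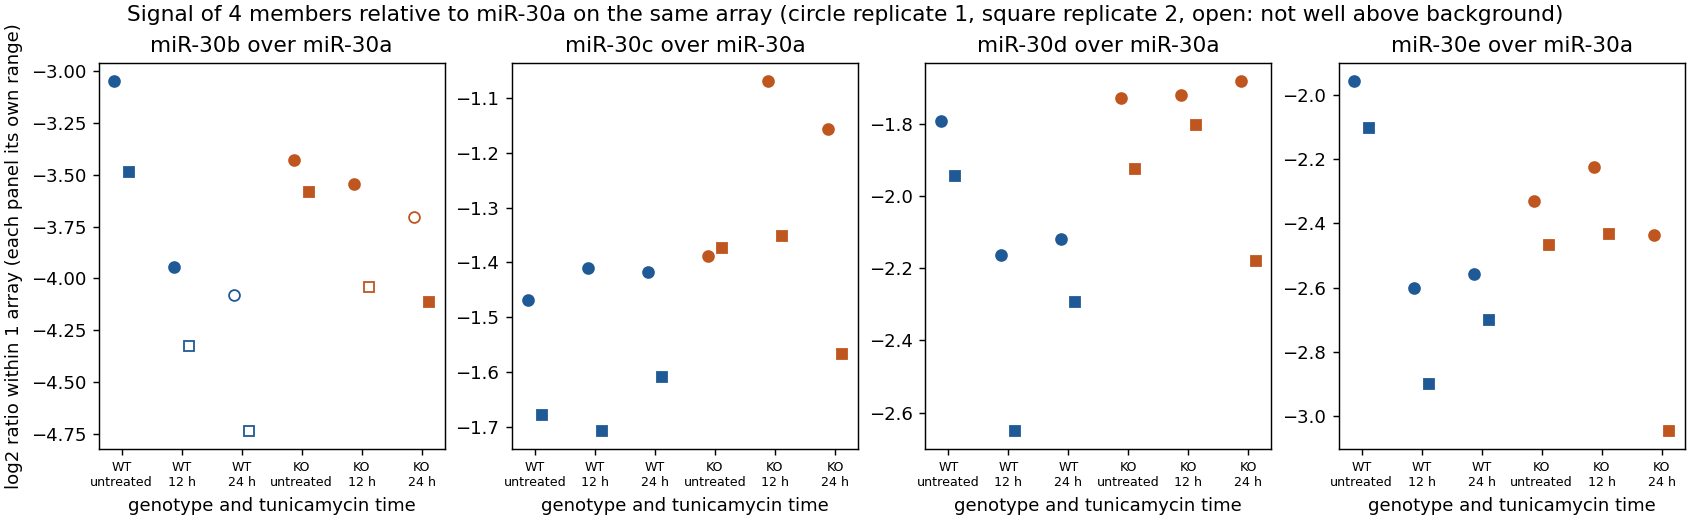
Log2 ratio of each of 4 members to miR-30a on the same array (y axis, a range per panel) by genotype and tunicamycin time (x axis); circles are replicate 1, squares replicate 2, and open symbols arrays where the member was not well above background. For miR-30b, miR-30d and miR-30e the 2 untreated WT arrays lie above the 4 treated WT arrays, and for miR-30c they overlap.

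In WT at 12 h the probes of a member gave like answers where more than 1 was bright. Both probes of miR-30d were well above background on all 12 arrays and differed in WT at 12 h by -0.61 and -0.53 on the log2 scale. For miR-30a, 2 of 3 probes were bright on all arrays, with differences of 0.03 and -0.03. miR-30e and miR-30c each rested on 1 probe that was bright on all arrays, with differences of -0.71 and 0.05, beside a second probe well above background on 3 and 5 arrays. miR-30b rested on 1 probe, well above background on 7 arrays, and its other probe was so on none. In KO at 24 h the bright probes lay further apart, with differences of 0.30 and 0.45 for miR-30a and 0.15 and 0.35 for miR-30d. No spot of the 5 members was saturated.

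Across the 12 arrays the members fell into no single pattern. Pearson's r of log2 levels, given as a description over 12 arrays that share slides and scaling, was 0.83 between miR-30b and miR-30e, 0.71 between miR-30c and miR-30d and 0.70 between miR-30d and miR-30e. miR-30a had r between 0.01 and 0.45 with the others. Among the other tested miRNAs whose level varied, the mean of the 5 members was most like miR-148a (r = 0.87), miR-25 (0.81), miR-26b (0.80), miR-106b (0.78) and miR-146b (0.74), against a median r of 0.25 over 139 such miRNAs.

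The opposite strands of the hairpins, written with a star in the array's naming, were dim. RefSeq gives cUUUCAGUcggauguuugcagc for miR-30a* and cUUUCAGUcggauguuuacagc for miR-30e*, shown because these were the strands bright enough to test; capitals again mark bases 2 to 8. miR-30a* was well above background on 7 of 12 arrays and miR-30e* on 6. Neither passed the test in any comparison, with WT differences at 12 h of 0.42 (adjusted p = 0.237 in limma) and 0.03 (adjusted p = 1). The strands miR-30b*, miR-30c-1* and miR-30c-2*, the last known for targeting the message of XBP1, were well above background on 0 arrays. miR-384-5p, which shares the seed, was also well above background on 0 arrays.

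Beside the family stood a list of 15 miRNAs that earlier studies linked to unfolded protein signalling, of which 8 were tested. In WT at 12 h, 5 of the 8 fell and none rose (median -0.90), beside 30.3% of all tested miRNAs called lower and a median of -0.32. At 24 h 2 fell (median -0.66), beside 15.2% and a median of -0.17. The 5 at 12 h included the neighbours miR-25 (-0.74, adjusted p = 0.0163 in limma), miR-106b (-0.97, adjusted p = 0.00552) and miR-93 (-0.84, adjusted p = 0.00663). These come from 1 cluster in the gene of a replication licensing factor, so the 5 are not 5 separate loci. In KO none of the 8 was called at 12 h (median -0.20, beside 0.69% of all called) or at 24 h (median -0.14, beside 2.07%). In untreated cells 2 were higher and 3 lower in KO, beside 32.4% of all called. After tunicamycin 3 were higher at 12 h, beside 24.8%, and 4 were higher and 1 lower at 24 h, beside 15.2%. The response in KO minus that in WT was called higher for 2 at 12 h, miR-106b (1.14) and miR-25 (0.88), beside 20.7% of all, and for 1, miR-34a, at 24 h, beside 8.28% called in either direction. For miR-93 of the same cluster the 12 h value was 0.37 and was not called (adjusted p = 0.295 in limma).

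The total gene signal that the deposited table holds on a log2 scale was not used for these results, because for some members it held more than their own probes. For miR-30b it exceeded the sum of its own probes on 12 of 12 arrays, and on each it equalled, within 1%, 1 of its 2 probes plus the total listed for the detected name before it. With both probes added, the match was off by 0.228 to 7.27%. On the first untreated WT array it was 158.8, against 24.6 from the probes of miR-30b. For miR-30c on 6 arrays and miR-30e on 6, the total likewise equalled 1 of 2 probes plus the preceding total within 1%, whereas miR-30a and miR-30d matched their own probes on 12 of 12. From 27.0 to 36.7% of detected miRNAs per array exceeded 1.2 times their own probes. In the deposited table the 12 h WT difference of miR-30b was -1.39 and that of miR-30e -0.41, neither past the test in limma.

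**Figure D4:**
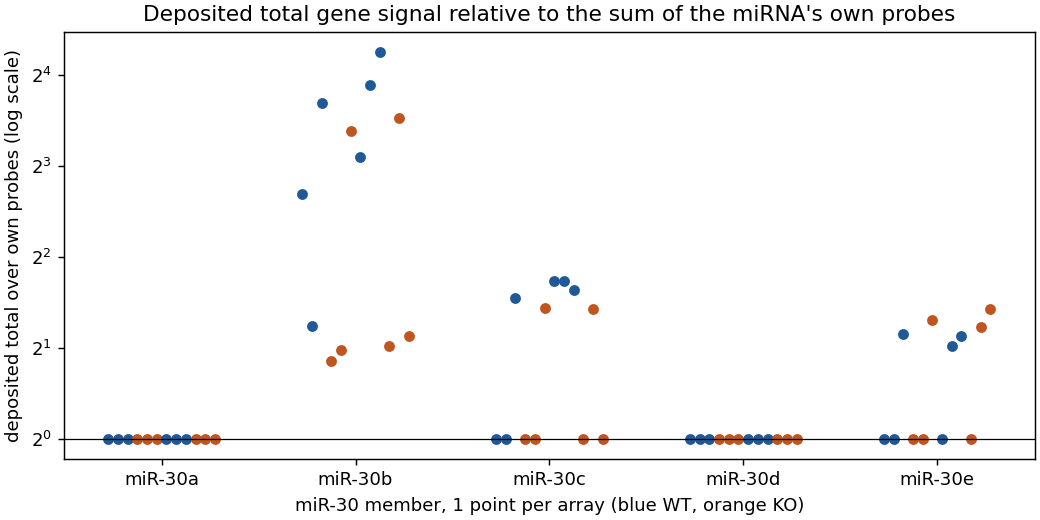
Deposited total gene signal divided by the sum of the miRNA's own probe signals (y axis, log scale) for each miR-30 member (x axis), with a point per array, blue for WT and orange for KO. miR-30a and miR-30d sit at 1 on all 12 arrays, miR-30b above 1 on all 12, and miR-30c and miR-30e above 1 on 6 each.

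The calls moved with the background correction, the measure, the scaling and the filter. Under 17 other settings the 12 h WT difference of miR-30e lay between -0.94 and -0.10 and was called in 7. It lost its call with either untreated WT array, or the second 12 h WT array, left out; its range over single omissions was -0.97 to -0.52. That of miR-30b lay between -1.39 and 0.02 over 16 settings, called in 7, and that at 24 h between -1.13 and 0.93, called in 8. The -1.39 came from the deposited table, whose totals for miR-30b held more than its own probes. The untreated difference of miR-30e between genotypes lay between -0.60 and 0.71 over 18 settings, called in 7. Its difference in response at 12 h lay between -0.62 and 1.00, called in 8. For miR-30b at both times, and for miR-30e in both genotype comparisons, the end of opposite sign came from the normexp background correction. With normexp the median over all tested miRNAs was 0.0057 in WT at 12 h and 0.70 in WT at 24 h. It was 0.67 in untreated KO against WT and -0.73 in the difference in response at 12 h. Leaving out single arrays kept the reported sign of each of these miR-30 differences. Calls then held in 5 of 12 omissions for miR-30b at 12 h and in 7 at 24 h, in 4 of 12 for miR-30e untreated and in 3 of 12 for its difference in response. Each was lost without the first untreated WT array, with values of -0.49, -0.58, -0.52 and 0.89. The 12 h call of miR-30b was also lost without any single array of WT at 12 h (-0.81 or -0.63), of WT at 24 h or of untreated KO (-0.72 unchanged). Its 24 h call was also lost without a 24 h WT or an untreated KO array (-0.81 unchanged). The untreated call of miR-30e was also lost without the other untreated WT array (-0.69), either untreated KO array (-0.67 or -0.54), a 24 h WT array or a 12 h KO array (-0.60 unchanged). Its difference in response kept the call only without the first 12 h WT array or a 24 h KO array, and lay between 0.75 and 1.09 over the omissions that lost it.

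**Figure D5:**
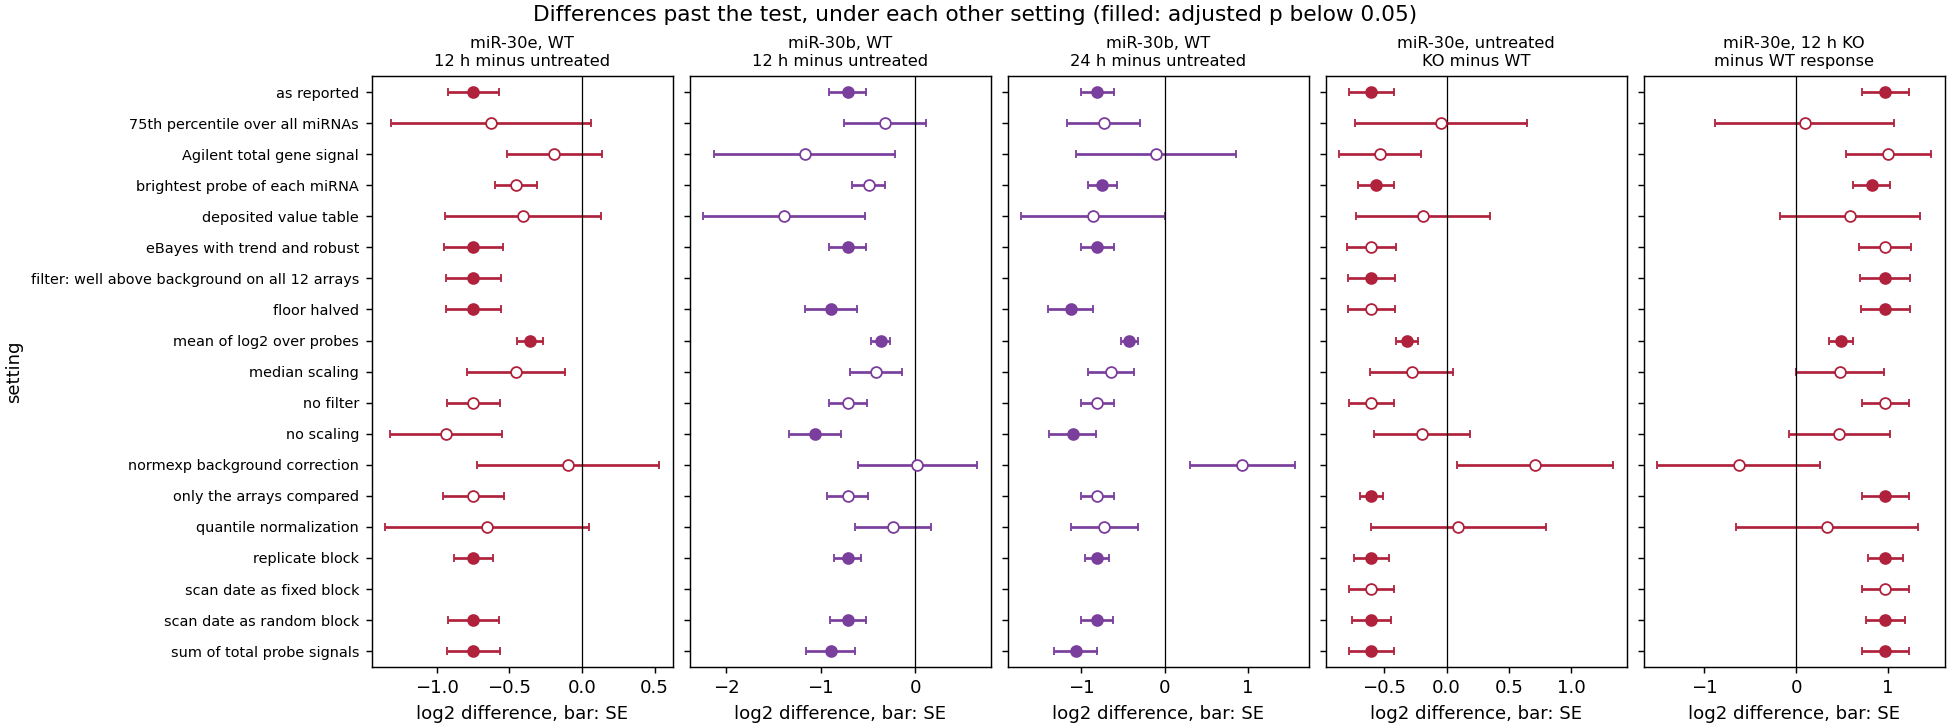
The 5 differences past the test (panels) on the log2 scale (x axis, bars are SE) as reported and under each other setting (y axis), with filled points for an adjusted p below 0.05. Points cross 0 under normexp in 4 panels and under quantile normalization in the panel of untreated KO minus WT.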

How the data were processed

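Total RNA was labelled with Cy3 and hybridised to Agilent 1-colour arrays, per the labels' protocols. The authors read them with Agilent Feature Extraction 10.7.1.1, per the submitters' processing notes and the file headers. The deposited processed signals are intensity in arbitrary units, already corrected for background and not scaled across arrays, per the file headers; other deposited columns hold 0 or 1 flags. Values in the deposited table are log2 of Agilent's total gene signal.

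Probe means of the deposited intensity, without control or outlier spots, were added up per miRNA. Each array was scaled by the 75th percentile of its 82 miRNAs that were bright on all 12 arrays, values were floored at 0.0322, and log2 was taken. Bright means well above background: the flag on at least 50% of spots of a probe of that miRNA. Testing kept the 145 mouse miRNAs that were bright on both arrays of some group. All 6 groups entered 1 limma 3.58.1 fit (R 4.3.3) with 6 residual degrees of freedom and 11 comparisons, and p-values were adjusted by Benjamini-Hochberg over the 145. They measure only the spread between the 2 arrays of a group, whose number limits the precision. That spread was pooled for each miRNA over the 6 groups, though it was unequal between them. Over all tested miRNAs the SD ran from 0.13 in untreated KO to 1.23 in WT at 12 h. Over the members it was 0.09 and 0.29 in those groups.

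The members and lists were chosen with earlier results of these data known. All 5 members were named in every comparison, as were the 5 miRNAs most like their mean and listed hairpin, seed and unfolded protein response miRNAs. Alternatives covered background correction, measure, scaling, floor, filter, spread, blocks (statmod 1.5.0) and single omitted arrays. The files gave no mean spot signal, so normexp (offset 50) ran on the median spot signal. The fit was tested on simulated data.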

Additional observations from a re-analysis of the deposited data

Results flagged for a closer look

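The response of miR-30e to 12 h of tunicamycin differed between the genotypes by a test of the difference itself. The KO response minus the WT response was 0.97 ± 0.25 (SE) on the log2 scale, adjusted p = 0.0349 in limma over 145 miRNAs. The median over all miRNAs was 0.49, miR-30e lay 0.48 above it, and 20.7% of all were called higher. WT levels went from -2.92 to -3.66 on average and KO levels from -3.52 to -3.29, with 2 arrays per group. The adjusted p lay between 0.0162 and 1 over 18 other settings, with the call kept in 8. No group has the 4 arrays that a check for outlying arrays needs.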

How the results depend on the processing

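The calls depended on the background correction, the measure, the scaling and the filter. The count of members called was 0 in WT at 12 h, in WT at 24 h, in untreated KO against WT and in the difference in response at 12 h with normexp, total gene signal, the deposited table, median scaling, the 75th percentile over all miRNAs, quantile normalization and no filter. It was also 0 with only the arrays compared or the brightest probe in WT at 12 h, with the filter of all 12 arrays in WT at 24 h (which leaves out miR-30b), and with no scaling, trend and robust or the scan as a fixed block in both genotype comparisons. With the floor halved it was 0 in untreated KO against WT. Without scaling it was 1 in WT at 12 h and 2 at 24 h; with the filter of all 12 arrays it was 1 in WT at 12 h. With only the arrays compared it was 2 in untreated KO against WT, and with the scan as a random block 1 in KO against WT at 12 h. The cause was not tested, except that the filters change how many miRNAs are adjusted over. Over single omissions the count ran from 0 to 2 in WT at both times and in the difference in response at 12 h, and from 0 to 1 in KO at 24 h, in untreated KO against WT and in KO against WT at 12 h. The total probe signal and the brightest probe were chosen as settings after seeing the data.

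With the replicate number as a block (replicate block) the count was 3 in WT at 12 h, 2 in WT at 24 h, 2 in untreated KO against WT and 1 in KO against WT at 12 h, and was as reported elsewhere. The calls it added were miR-30d in WT at 12 h (adjusted p = 0.0424 in limma), miR-30e in WT at 24 h (0.0310), miR-30b in untreated KO against WT (0.0432) and miR-30d in KO against WT at 12 h (0.0475). The labels do not say that the numbers pair arrays. Differences between replicates 1 and 2 correlated across miRNAs at 0.68 to 0.95 between groups on a slide, which share scans by number, and at -0.54 to -0.24 between slides.

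With normexp the values of opposite sign were, in WT at 12 h, 0.042 for miR-30a, 0.023 for miR-30b and 0.079 for miR-30c, and in WT at 24 h, 0.93 for miR-30b, 0.70 for miR-30d and 0.74 for miR-30e. Also with normexp, in KO at 12 h, -0.38 for miR-30a, -0.45 for miR-30c, -0.55 for miR-30d and -0.72 for miR-30e, and in KO at 24 h, -0.13 for miR-30a, -0.28 for miR-30c, -0.37 for miR-30d and -0.53 for miR-30e. Also with normexp, in untreated KO against WT, 0.38 for miR-30a, 1.01 for miR-30b, 0.65 for miR-30c, 0.65 for miR-30d and 0.71 for miR-30e, and in KO against WT at 24 h, -0.13 for miR-30a, -0.57 for miR-30b, -0.31 for miR-30c, -0.41 for miR-30d and -0.56 for miR-30e. Also with normexp, in the difference in response at 12 h, -0.42 for miR-30a, -0.98 for miR-30b, -0.53 for miR-30c, -0.47 for miR-30d and -0.62 for miR-30e, and in the difference in response at 24 h, -0.51 for miR-30a, -1.58 for miR-30b, -0.96 for miR-30c, -1.06 for miR-30d and -1.27 for miR-30e. Also with normexp, in WT 24 h against 12 h, 0.91 for miR-30b, and in KO 24 h against 12 h, 0.19 for miR-30e. With the total gene signal the values of opposite sign were, in WT at 12 h, 0.023 for miR-30a and 0.032 for miR-30c, and in WT at 24 h, -0.046 for miR-30a and 0.51 for miR-30e. Also with the total gene signal, in KO at 12 h, 1.15 for miR-30b, and in KO at 24 h, 1.17 for miR-30b. Also with the total gene signal, in KO against WT at 12 h, -0.029 for miR-30b, and in KO against WT at 24 h, -1.08 for miR-30b and -0.59 for miR-30c. Also with the total gene signal, in WT 24 h against 12 h, -0.069 for miR-30a and 1.06 for miR-30b, and in KO 24 h against 12 h, -0.012 for miR-30c, -0.034 for miR-30d and 0.48 for miR-30e. With median scaling the values of opposite sign were, in WT at 12 h, 0.27 for miR-30a and 0.28 for miR-30c, and in KO at 12 h, -0.045 for miR-30a. Also with median scaling, in KO at 24 h, -0.22 for miR-30e, and in untreated KO against WT, 0.089 for miR-30a, 0.28 for miR-30c and 0.13 for miR-30d. Also with median scaling, in KO against WT at 24 h, -0.014 for miR-30e, and in the difference in response at 12 h, -0.32 for miR-30a and -0.16 for miR-30c. Also with median scaling, in the difference in response at 24 h, -0.031 for miR-30c, and in WT 24 h against 12 h, -0.16 for miR-30a, -0.12 for miR-30c and -0.039 for miR-30e. Also with median scaling, in KO 24 h against 12 h, -0.16 for miR-30b and -0.0034 for miR-30d. With the 75th percentile over all miRNAs the values of opposite sign were, in WT at 12 h, 0.098 for miR-30a and 0.11 for miR-30c, and in KO at 12 h, -0.60 for miR-30a, -0.43 for miR-30c, -0.54 for miR-30d and -0.53 for miR-30e. Also with the 75th percentile over all miRNAs, in KO at 24 h, -0.46 for miR-30a, -0.44 for miR-30c, -0.56 for miR-30d and -0.80 for miR-30e, and in untreated KO against WT, 0.33 for miR-30a, 0.085 for miR-30b, 0.52 for miR-30c and 0.37 for miR-30d. Also with the 75th percentile over all miRNAs, in KO against WT at 12 h, -0.071 for miR-30b and -0.025 for miR-30c, and in KO against WT at 24 h, -0.38 for miR-30a, -0.23 for miR-30c, -0.11 for miR-30d and -0.49 for miR-30e. Also with the 75th percentile over all miRNAs, in the difference in response at 12 h, -0.70 for miR-30a, -0.16 for miR-30b, -0.54 for miR-30c and -0.097 for miR-30d, and in the difference in response at 24 h, -0.71 for miR-30a, -0.75 for miR-30c, -0.48 for miR-30d and -0.45 for miR-30e. Also with the 75th percentile over all miRNAs, in KO 24 h against 12 h, -0.16 for miR-30b, -0.012 for miR-30c and -0.028 for miR-30d. With the brightest probe the values of opposite sign were, in WT at 12 h, 0.22 for miR-30a and 0.31 for miR-30c, and in KO at 12 h, 0.15 for miR-30b. Also with the brightest probe, in KO at 24 h, 0.20 for miR-30b, and in KO against WT at 24 h, -0.10 for miR-30e. Also with the brightest probe, in WT 24 h against 12 h, -0.030 for miR-30a and -0.028 for miR-30c, and in KO 24 h against 12 h, -0.0032 for miR-30d. With quantile normalization the values of opposite sign were, in WT at 12 h, 0.16 for miR-30c, and in WT at 24 h, -0.32 for miR-30a. Also with quantile normalization, in KO at 12 h, -0.59 for miR-30a, -0.26 for miR-30c, -0.39 for miR-30d and -0.32 for miR-30e, and in KO at 24 h, -0.071 for miR-30a, -0.34 for miR-30c, -0.49 for miR-30d and -0.68 for miR-30e. Also with quantile normalization, in untreated KO against WT, 0.61 for miR-30c, 0.46 for miR-30d and 0.094 for miR-30e, and in KO against WT at 12 h, -0.057 for miR-30b. Also with quantile normalization, in the difference in response at 12 h, -0.088 for miR-30a, -0.0033 for miR-30b and -0.41 for miR-30c, and in the difference in response at 24 h, -0.55 for miR-30c, -0.21 for miR-30d and -0.072 for miR-30e. Also with quantile normalization, in KO 24 h against 12 h, -0.11 for miR-30b, -0.081 for miR-30c and -0.099 for miR-30d. With the mean of log2 over probes the values of opposite sign were, in WT at 24 h, -0.094 for miR-30a, and in KO at 12 h, 0.027 for miR-30b. Also with the mean of log2 over probes, in KO at 24 h, 0.082 for miR-30b, and in KO against WT at 24 h, -0.035 for miR-30e. Also with the mean of log2 over probes, in WT 24 h against 12 h, -0.034 for miR-30a. With the deposited table the values of opposite sign were, in WT at 24 h, -0.80 for miR-30a and -0.011 for miR-30c, and in KO at 12 h, -0.51 for miR-30a, 0.52 for miR-30b and -0.44 for miR-30d. Also with the deposited table, in KO at 24 h, -0.79 for miR-30a, 0.13 for miR-30b, -0.040 for miR-30c and -0.88 for miR-30d, and in untreated KO against WT, 0.19 for miR-30a and 0.22 for miR-30d. Also with the deposited table, in KO against WT at 12 h, -0.10 for miR-30b, and in KO against WT at 24 h, -1.02 for miR-30b and -0.53 for miR-30c. Also with the deposited table, in the difference in response at 12 h, -0.31 for miR-30a, and in the difference in response at 24 h, -0.029 for miR-30c. Also with the deposited table, in WT 24 h against 12 h, -0.61 for miR-30a, 0.53 for miR-30b and -0.40 for miR-30d, and in KO 24 h against 12 h, -0.28 for miR-30a, -0.39 for miR-30b, -0.42 for miR-30c, -0.44 for miR-30d and 0.067 for miR-30e. With no scaling the values of opposite sign were, in WT at 24 h, -0.81 for miR-30a and -0.75 for miR-30c, and in KO at 12 h, -0.53 for miR-30a, -0.36 for miR-30c, -0.47 for miR-30d and -0.47 for miR-30e. Also with no scaling, in KO at 24 h, -0.77 for miR-30a, -0.75 for miR-30c, -0.88 for miR-30d and -1.12 for miR-30e, and in untreated KO against WT, 0.17 for miR-30a, 0.36 for miR-30c and 0.21 for miR-30d. Also with no scaling, in the difference in response at 12 h, -0.32 for miR-30a and -0.16 for miR-30c, and in the difference in response at 24 h, -0.0078 for miR-30c. Also with no scaling, in WT 24 h against 12 h, -0.59 for miR-30a, -0.55 for miR-30c, -0.39 for miR-30d and -0.47 for miR-30e, and in KO 24 h against 12 h, -0.24 for miR-30a, -0.036 for miR-30b, -0.39 for miR-30c and -0.41 for miR-30d. Leaving out single arrays turned the sign of 19 uncalled differences, whose ranges were -0.098 to 0.051 for miR-30a in WT at 12 h, -0.23 to 0.21 for miR-30c in WT at 12 h, -0.12 to 0.15 for miR-30a in WT at 24 h, -0.038 to 0.20 for miR-30c in WT at 24 h and -0.33 to 0.14 for miR-30b in KO at 12 h. Further such ranges were -0.11 to 0.037 for miR-30b in KO at 24 h, -0.11 to 0.16 for miR-30e in KO at 24 h, -0.16 to 0.075 for miR-30c in untreated KO against WT, -0.13 to 0.021 for miR-30a in KO against WT at 12 h and -0.089 to 0.38 for miR-30b in KO against WT at 12 h. Further such ranges were -0.055 to 0.29 for miR-30a in KO against WT at 24 h, -0.13 to 0.14 for miR-30e in KO against WT at 24 h, -0.092 to 0.18 for miR-30a in WT 24 h against 12 h, -0.13 to 0.31 for miR-30c in WT 24 h against 12 h and -0.073 to 0.56 for miR-30d in WT 24 h against 12 h. Further such ranges were -0.059 to 0.39 for miR-30e in WT 24 h against 12 h, -0.17 to 0.30 for miR-30b in KO 24 h against 12 h, -0.10 to 0.22 for miR-30c in KO 24 h against 12 h and -0.033 to 0.12 for miR-30d in KO 24 h against 12 h.

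Of 866 values of uncalled differences under these settings, 176 turned sign, most with normexp (32) and the 75th percentile over all miRNAs (31). With normexp the median over all tested miRNAs was -0.65 in KO at 12 h, -0.42 in KO at 24 h and -1.07 in the difference in response at 24 h. None of the 176 passed the test as reported or under the setting that turned it. With the total gene signal or the deposited table, values of miR-30b, miR-30c and miR-30e include totals that held more than their own probes. Signal over background limits miR-30b, which sat at the floor on 4 arrays, and 2 arrays per group limit every test. Scan as a fixed block could not be fitted for tunicamycin against untreated, since the scans are nested in the slides.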
